A study of Homo sapiens with 6 samples.

Results

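The genes described here are 46 genes of the human lysosome, chosen by name: soluble hydrolases, proteins of the lysosomal membrane, subunits of the proton pump and the 3 transcription factors known to drive many of them. They were read from a table of 63009 genes in mitotic cells of ERRAS fibroblasts, by symbol, taking the row with the highest mean where a symbol had several rows. All 46 were found, 45 by symbol and 1, cathepsin L, by a synonym. ERRAS cells are IMR90 human fetal lung fibroblasts, a primary cell strain, that stably carry an introduced tamoxifen-activatable fusion of oncogenic H-RasV12 with the ligand-binding domain of the estrogen receptor (ER:RAS). Ras-induced cells received 100 nM tamoxifen per the labels (the methods of the study name 4-hydroxytamoxifen and give its dose in another unit, by mass) and had activated Ras for 4 days, whereas control cells carried the same fusion and received no inducer. All cells of both groups were arrested in mitosis with 1 µM dimethylenastron (DME), an inhibitor of the spindle motor Eg5, and were collected as detached cells with a mitotic index above 90%. Each group had 3 libraries of poly(A) RNA. The study describes the experiment as repeated independently, while the labels do not tie a library to a repeat. Control cells thus share the transgene and the DME arrest with Ras-induced cells, and no unarrested library was analysed here.

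Lysosomes are acidic organelles in which about every class of macromolecule is broken down. Hydrolases reach them through the Golgi, mostly on mannose 6-phosphate receptors, and work at a low pH that the vacuolar-type proton ATPase maintains by pumping protons across the lysosomal membrane. TFEB, TFE3 and MITF are related transcription factors that bind a short DNA motif with the core CACGTG near the start of many lysosomal genes. Lysosomal content is known to grow in senescent fibroblasts, and the widely used stain for senescence, SA-β-gal, detects the activity of the lysosomal β-galactosidase encoded by GLB1. The comparison therefore asks whether lysosomal transcripts were altered in mitotic cells after 4 days of Ras activation. The study calls such cells pre-senescent, and it reports SA-β-gal, an enzyme activity, in cells induced for longer.

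The promoter stretches below are shown because they hold the motif through which TFEB, TFE3 and MITF act. RefSeq promoter sequences on build GRCh38.p14, each running from 250 bases before to 50 bases after an annotated start, were found for 33 of the 46 genes. The genes with no entry were HEXA, MANBA, NAGLU, ARSA, ASAH1, PSAP, CTSB, CTSK, CTSS, LGMN, LAMP2, ATP6V1A and ATP6V1H. The longer motif TCACGTG, searched on both strands, was found for 7 of the 33 genes. Capitals mark this motif in either direction, TCACGTG or CACGTGA, and TCACGTGA where both overlap. All 7 stretches are given 5′ to 3′ on the strand of the gene.
GAA: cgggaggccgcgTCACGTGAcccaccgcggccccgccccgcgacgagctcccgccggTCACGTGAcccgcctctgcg
NEU1: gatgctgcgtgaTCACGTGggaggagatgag
CTSA: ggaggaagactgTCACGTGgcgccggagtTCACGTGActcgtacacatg
CTSD: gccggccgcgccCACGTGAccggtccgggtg
LAMP1: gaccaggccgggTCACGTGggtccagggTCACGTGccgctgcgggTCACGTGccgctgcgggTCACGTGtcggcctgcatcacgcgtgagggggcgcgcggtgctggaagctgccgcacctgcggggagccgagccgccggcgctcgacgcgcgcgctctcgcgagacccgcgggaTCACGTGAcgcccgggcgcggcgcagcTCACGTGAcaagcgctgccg
MCOLN1: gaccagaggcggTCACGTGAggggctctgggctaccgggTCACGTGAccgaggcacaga
ATP6V0D1: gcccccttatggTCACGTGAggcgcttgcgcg

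In GRCh38.p14 these stretches lie at chr17:80101492-80101568 on the plus strand for GAA, chr6:31862930-31862960 on the minus strand for NEU1 and chr20:45891280-45891328 on the plus strand for CTSA. That of CTSD lies at chr11:1763956-1763986 on the minus strand, that of LAMP1 at chr13:113297034-113297256 on the plus strand, that of MCOLN1 at chr19:7522570-7522628 on the plus strand and that of ATP6V0D1 at chr16:67481198-67481229 on the minus strand. LAMP1, a main glycoprotein of the lysosomal membrane, had 6 copies, and the cores of the 2 nearest the start began 28 bases and 1 base before it. GAA, CTSA and MCOLN1 had 2 copies each, and NEU1, CTSD and ATP6V0D1 had 1. TCACGTG was present in 4.49% of 27305 genes of the promoter table and in 7.29% of the 8654 tested genes that the table holds. With fewer than 80% of the lysosomal genes in the table, a comparison of shares over the whole list is void. The core CACGTG alone was also found for CD63, the related M-box TCATGTG for PPT1, TPP1, CTSA, CD63 and SCARB2, and the AP-1 motif TGANTCA for FUCA2, PPT1, CD63 and TFE3. Across all genes of the table these motifs were held by 8.77%, 3.59% and 9.37%, respectively.

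Expression was given as FPKM, fragments scaled to the length of the transcript and to the size of the library, so levels can be compared between genes. Differences were tested on log2(FPKM + 1) with limma over the 13993 genes whose mean reached 1 FPKM. A gene was called altered when its p-value, adjusted over all of these by Benjamini-Hochberg, was 0.05 or less. A log2 fold change on this scale understates the change of low genes. The libraries were of similar depth, 0.849 to 1.17 times that of control library 1 as judged from the smallest steps between values, while the absolute depth is unknown. HRAS, whose native and introduced transcripts this value cannot separate, was listed at 1140 to 1176 FPKM in control and 1439 to 1847 FPKM in Ras-induced libraries. The fibroblast genes VIM and FN1 were abundant in all libraries, at 1924 to 2564 and 711 to 1106 FPKM, whereas the summed level of 8 fibroblast markers was 5404 to 6312 FPKM in control and 3987 to 5330 FPKM in Ras-induced cells. COL1A2 and THY1 were altered among them, both lower, and COL1A1 (log2 fold change −1.43, limma adjusted p = 0.0501) and COL3A1 (−1.25, 0.0553) were also lower without overlap and just missed the threshold. 4 of the 8 were altered with a pseudocount of 0.1, with a filter at 5 FPKM, after upper-quartile scaling or without Ras-induced library 2. Summed levels of 8 mitotic markers were 1758 to 1837 FPKM in control and 1397 to 1546 FPKM in Ras-induced cells, and 5 of the 8 were altered, all lower (62.5%, against 5.67% of all tested genes). This count was 1 to 3 when any 1 library was left out. Of 6 epithelial markers, 4 could be tested and 0 were altered (sum 64.9 to 71.5 against 73.4 to 78.8 FPKM, with KRT18 at the highest level). EPCAM, under the filter, was lower without overlap, at 0.880 to 1.80 against 0.167 to 0.424 FPKM. CLDN4 had means of 4.44 and 3.03 FPKM, with overlap. Of 5 endothelial markers PECAM1 was at 0 in every library, and TEK, the one tested, was lower in Ras-induced cells (sum of the 5, 14.5 to 16.5 against 4.81 to 5.41 FPKM). Macrophage markers were near the bottom of the scale: the 8 summed to 0.836 to 1.32 FPKM in control and 1.30 to 1.92 FPKM in Ras-induced cells, with AIF1 and TYROBP listed at 0 throughout. The part of these shifts in the results below was not tested. In bulk RNA, fewer cells of a type and less RNA per cell cannot be told apart.

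Control library 3 stood apart for lysosomal genes. It had the highest of the 3 control values for 33 of the 44 tested lysosomal genes (75%), compared with 31% of all tested genes. The median lysosomal gene was 0.26 higher there on the log2 scale than in the mean of the other 2 control libraries, whereas the median of all tested genes was 0.06 lower (−0.06). Without it the log2 fold change moved by over 1.5 times or changed sign for 22 of the 44, of which 0 were among the altered genes named below and 9 changed sign. For these 22 genes the values without this library are given beside the results.

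Of the 46 lysosomal genes, 44 passed the filter on low values. 10 of these 44 were altered (22.7%), compared with 16.7% of all tested genes. 8 were higher in Ras-induced cells (18.2% of the 44, against 11% of all tested genes) and 2 were lower (4.55% against 5.67%). The altered genes were 5 proteases (CTSB, CTSK and CTSL higher, CTSC and LGMN lower), 3 glycan hydrolases (IDS, NEU1 and MANBA, all higher) and 2 pump subunits (ATP6V0D1 and ATP6V1H, both higher). The list as a whole moved little: its median log2 fold change was −0.04 compared with 0.10 for all tested genes, and 16 of the 44 lay above the median of all. The values of the groups did not overlap for 16 of the 44 (36.4%), 11 higher and 5 lower, compared with 39.9% of all tested genes (27.1% higher and 12.8% lower). Without control library 3, 45 lysosomal genes could be tested and 12 were altered (26.7%, against 14% of all tested genes in that fit), 10 higher (22.2% against 8.65%) and 2 lower (4.44% against 5.35%), and the median of the list became 0.08. The median of all tested genes in that fit was 0.09, and 22 of the 45 lysosomal genes lay above it. PSAP, CTSS and ATP6V0A1 were then altered as higher and CTSZ as lower, while MANBA and CTSC were no longer altered. The split of higher and lower calls also depended on scaling between libraries. After quantile normalization, which moved the median of all genes to 0.01, 7 were altered (4 higher and 3 lower, against 7.46% and 7.93% of all genes), and after scaling to a common upper quartile 8 were altered (4 and 4, against 6.58% and 7.87%).

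**Figure D1:**
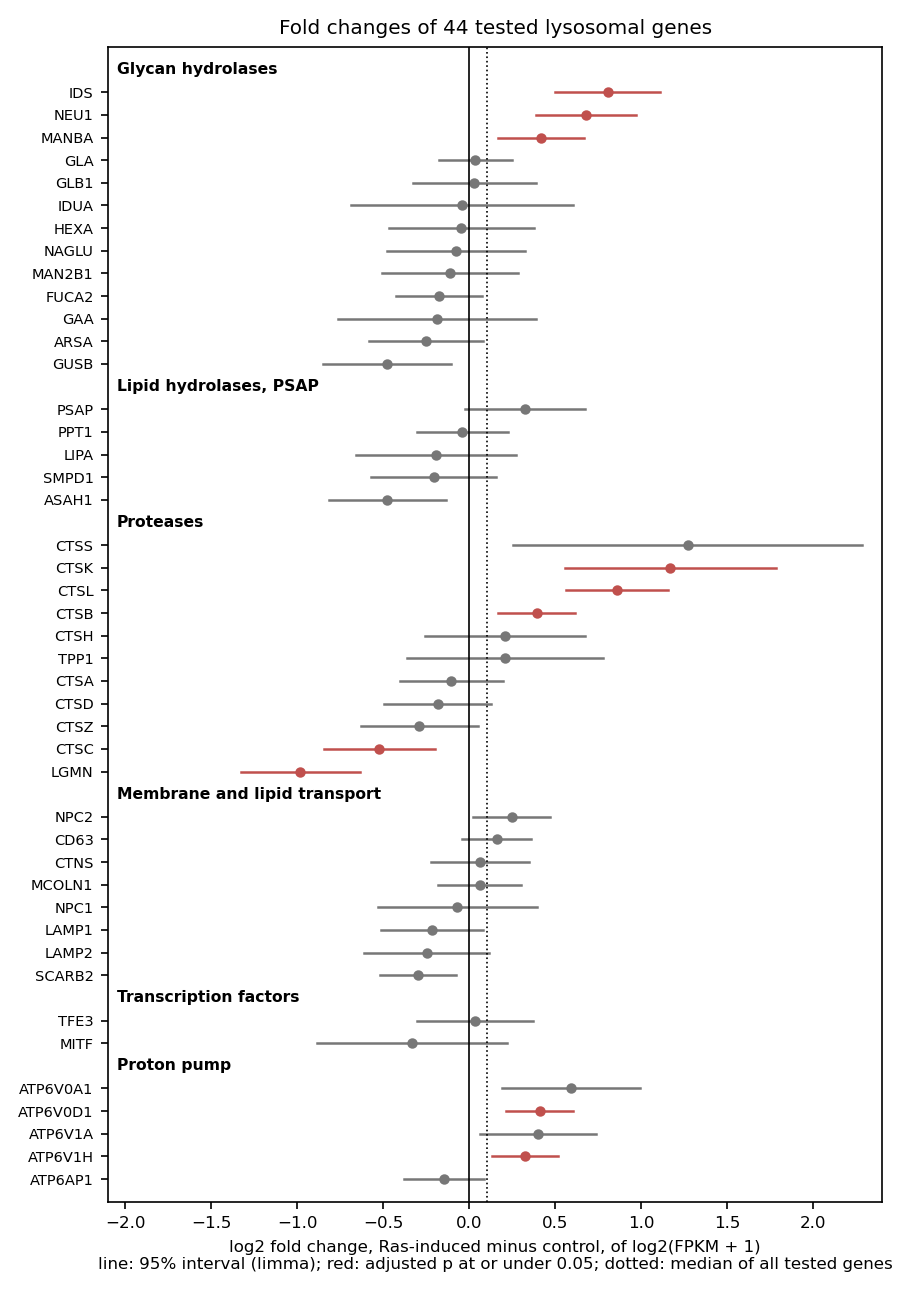
Log2 fold change of each of the 44 tested lysosomal genes, Ras-induced minus control, on the log2(FPKM + 1) scale, grouped by role; points are limma estimates, lines their 95% intervals, red marks adjusted p at or under 0.05, and the dotted line is the median of all tested genes (0.10). The 8 genes altered as higher and 2 altered as lower stand beside 34 whose calls did not pass the threshold, and estimates run from −0.98 for LGMN to 1.27 for CTSS.

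**Figure D2:**
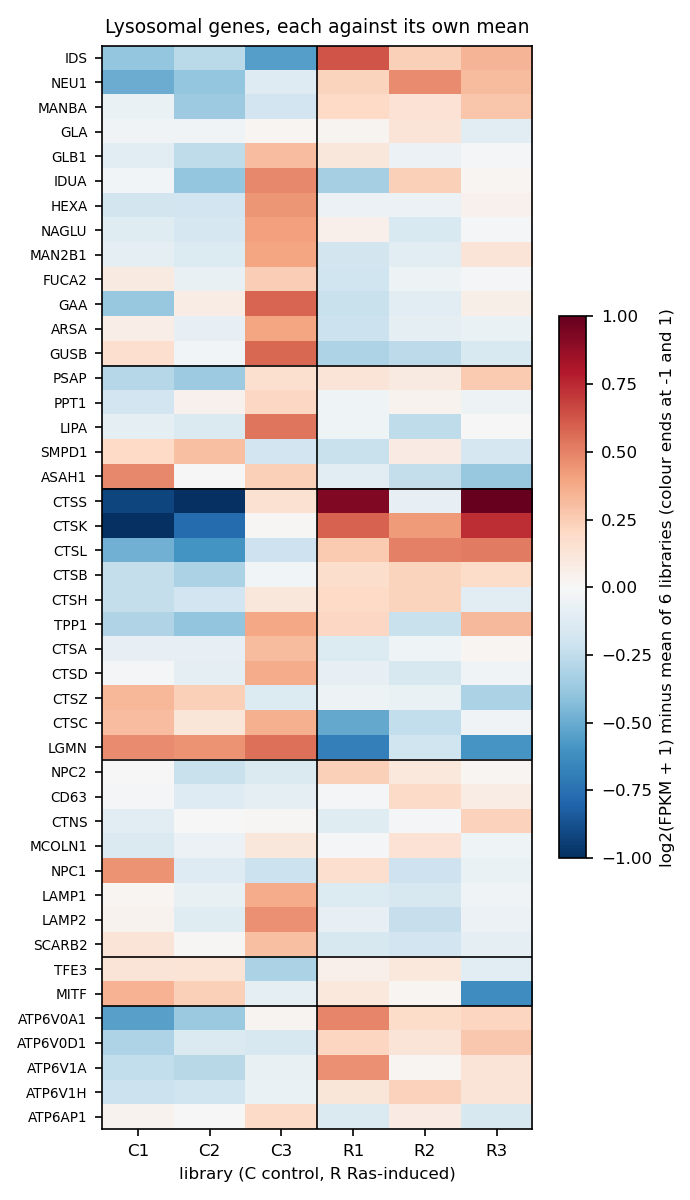
Heat map of the 44 tested lysosomal genes in the 3 control (C1 to C3) and 3 Ras-induced (R1 to R3) libraries; colour gives log2(FPKM + 1) minus the gene's own mean over the 6 libraries, with the scale ending at −1 and 1. The C3 column is the reddest of the controls, matching its highest control value for 33 of the 44 genes.

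The glycan hydrolases remove sugars, sulfates and whole sugar chains from glycoproteins, glycolipids and glycosaminoglycans. 13 of the 14 in the list could be tested, and 3 were altered, all as higher (23.1%, against 11% of all tested genes). The count was 2 after either scaling, 1 without control library 2 or Ras-induced library 3, and 2 when any other library was left out. Iduronate 2-sulfatase (IDS, chrX:148558519-148602635 in GRCh37, minus strand), which takes sulfate from heparan and dermatan sulfate, was at 25.8, 28.0 and 23.0 FPKM in control and 53.1, 40.4 and 43.3 FPKM in Ras-induced libraries. All 3 Ras-induced values were above all control values, with means of 25.6 ± 2.52 and 45.6 ± 6.65 FPKM (SD, n = 3) and a log2 fold change of 0.80 (SE 0.13, limma adjusted p = 0.0105). IDS shares sequence with a neighbouring pseudogene, IDSP1, listed at 2.87, 4.28 and 2.85 FPKM in control and 7.87, 7.49 and 6.81 FPKM in Ras-induced libraries. How reads were divided between both is uncertain, and the sum of both was also without overlap, 25.8 to 32.3 FPKM against 47.9 to 60.9 FPKM.

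Sialidase NEU1 (chr6:31825436-31830682 in GRCh37, minus strand), which removes terminal sialic acid, was at 24.3, 26.3 and 31.8 FPKM in control and 40.8, 48.7 and 43.7 FPKM in Ras-induced libraries. The groups were well apart, with a log2 fold change of 0.68 (SE 0.12, limma adjusted p = 0.0153). The call was lost without control library 2 (adjusted p = 0.0563) and without Ras-induced library 3 (0.0534). NEU1 is one of the 7 genes with TCACGTG in the stretches above. β-mannosidase (MANBA, chr4:103551927-103682151, minus strand) was at 12, 9.57 and 11.0 FPKM in control and 14.7, 14.1 and 15.5 FPKM in Ras-induced libraries. Its rise was small but without overlap, with a log2 fold change of 0.42 (SE 0.10, limma adjusted p = 0.0418). The call did not hold when any 1 of the 6 libraries was left out (adjusted p = 0.0576 to 0.135), nor after quantile normalization (0.0948).

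GLB1, which encodes the β-galactosidase behind SA-β-gal, was at 41.5, 37.3 and 55.5 FPKM in control and 48.3, 42.8 and 44.3 FPKM in Ras-induced libraries. The Ras-induced values lay within the range of the controls, and the log2 fold change was 0.03 with a 95% interval of −0.33 to 0.39 (limma adjusted p = 0.914). Without control library 3 it was 0.19 (adjusted p = 0.213), and it was −0.07 after quantile normalization. The interval, widened by the spread of GLB1 itself in the controls, includes a rise of up to 0.39 on the log2 scale. β-glucuronidase (GUSB) was at 34.5, 30.1 and 46.2 FPKM in control and 24.6, 25.5 and 27.4 FPKM in Ras-induced libraries. Every Ras-induced value was below every control value, but the log2 fold change of −0.48 (SE 0.16) did not pass the threshold (limma adjusted p = 0.0817). It was −0.31 without control library 3.

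The other 8 tested glycan hydrolases had log2 fold changes between −0.25 (ARSA, which desulfates sulfatide) and 0.04 (GLA, α-galactosidase A). In the fit without control library 3 they were −0.12 for ARSA, −0.10 for FUCA2 and 0.05 for GLA. They were then above 0 for HEXA (0.16), GAA (0.06), IDUA (0.19), MAN2B1 (0.06) and NAGLU (0.11). The median of all 13 tested glycan hydrolases was −0.05 with that library and 0.11 without it. Levels ran from 2.10 FPKM in control cells for IDUA, α-L-iduronidase, to 104.3 FPKM for FUCA2, an α-fucosidase. FUCA1, the α-fucosidase of the lysosome itself, was under the filter: it was listed at 0.332, 0.314 and 0.424 FPKM in control and 0.0586, 0 and 0.204 FPKM in Ras-induced libraries. All 3 control values were above the Ras-induced values, and in the fit with no filter on low values its adjusted p from limma was 0.0915.

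Of the 4 lipid hydrolases and prosaposin, the precursor of the saposins that present lipids to them, 0 of 5 were altered by limma (against 16.7% of all tested genes). At an unadjusted p under 0.05, 0 were higher and 1 was lower, compared with 3206 and 1501 of the 13993 tested genes. The lower gene was ASAH1, acid ceramidase, at 40.4, 28.5 and 33.9 FPKM in control and 26.6, 24.1 and 21.8 FPKM in Ras-induced libraries. All Ras-induced values were below the controls, with a log2 fold change of −0.48 (SE 0.14, limma adjusted p = 0.0652). It passed the threshold after quantile normalization (adjusted p = 0.039) and upper-quartile scaling (0.0385). PSAP was the most abundant of the 5, at 169.5, 160.8 and 231.8 FPKM in control and 226.7, 220.8 and 249.0 FPKM in Ras-induced libraries. Control library 3 was alone in overlapping the Ras-induced values, and the log2 fold change was 0.33 (SE 0.15, limma adjusted p = 0.174) with it and 0.49 (adjusted p = 0.0208) without it. LIPA, acid lipase, was the lowest in level, with a control mean of 18.1 FPKM, and SMPD1, acid sphingomyelinase, and PPT1, palmitoyl-protein thioesterase, had log2 fold changes of −0.21 and −0.04. These were −0.35 and 0.05 without control library 3. The log2 fold change of LIPA was −0.20 with that library and 0.02 without it.

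Proteases were the group with most altered genes, 5 of 11 (45.5%, against 16.7% of all tested genes), in both directions. The count was 4 after either scaling, 6 without control library 3, 3 without Ras-induced library 3 and 2 when any other library was left out. Cathepsins B, C, H, K, L, S and Z are cysteine proteases, and legumain (LGMN) is an asparaginyl endopeptidase known to process cathepsins. Cathepsin L (CTSL, chr9:90338966-90346384 in GRCh37, plus strand), a broad endopeptidase, was at 106.1, 97.9 and 128.2 FPKM in control and 178.6, 211.3 and 212.9 FPKM in Ras-induced libraries. The groups were far apart, with means of 110.7 ± 15.7 and 200.9 ± 19.4 FPKM (SD, n = 3) and a log2 fold change of 0.86 (SE 0.13, limma adjusted p = 0.00841). The 10 listed pseudogenes of CTSL reached at most 0.0219 FPKM in any library. Cathepsin K (CTSK, chr1:150767356-150782053, minus strand), a collagen-degrading enzyme best known from osteoclasts, was at 11.1, 13.3 and 23.5 FPKM in control and 35.6, 31.6 and 39.4 FPKM in Ras-induced libraries. It had the largest log2 fold change of the 10 altered lysosomal genes, 1.17 (SE 0.26, limma adjusted p = 0.0279), although control library 3 was about midway between the groups. Without that library it was 1.47 (adjusted p = 0.00604), and without any 1 of the others the call was lost (adjusted p = 0.0596 to 0.0895).

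Cathepsin B (CTSB, chr8:11700033-11727042, minus strand) was, after CD63, the most abundant gene of the list, at 613.5, 580.2 and 710.3 FPKM in control and 819.9, 847.2 and 823.0 FPKM in Ras-induced libraries. The Ras-induced values were close together and above all controls, with a log2 fold change of 0.39 (SE 0.09, limma adjusted p = 0.0353). The call held without control library 3 (adjusted p = 0.0172) and was lost without any 1 of the other libraries (0.0816 to 0.121) and after quantile normalization (0.153). Cathepsin S (CTSS), an endopeptidase of antigen presentation, was at 4.19, 3.46 and 9.94 FPKM in control and 17.7, 8.29 and 19.5 FPKM in Ras-induced libraries. It had the largest estimate of all tested lysosomal genes, a log2 fold change of 1.27, but control library 3 exceeded Ras-induced library 2, and the call did not pass (SE 0.42, limma adjusted p = 0.0878). Without control library 3 it did (adjusted p = 0.0365). Of the macrophage markers, FCER1G was also higher in the Ras-induced libraries, at 0.310, 0.306 and 0.532 FPKM in control and 1.28, 0.562 and 0.597 FPKM in Ras-induced libraries, while CSF1R overlapped at 0.245 to 0.615 FPKM and PTPRC, AIF1 and TYROBP were listed at 0 in all Ras-induced libraries. LAPTM5 was at 0.182, 0.248 and 0.103 FPKM in control and 0.0805, 0.107 and 0.0623 FPKM in Ras-induced libraries, CD14 overlapped at 0.0372 to 0.194 FPKM, and CD163 was listed at 0 in all libraries but Ras-induced library 3 (0.0156 FPKM). Their part in the CTSS values was not tested.

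CTSC and LGMN were altered in the other direction. Cathepsin C (CTSC, chr11:87998237-88092852, minus strand), the dipeptidyl peptidase that activates granule serine proteases, was at 216.8, 189.6 and 223.7 FPKM in control and 122.5, 147.5 and 170.8 FPKM in Ras-induced libraries. The groups did not overlap, with a log2 fold change of −0.52 (SE 0.14, limma adjusted p = 0.0452). The call held without Ras-induced library 3 (adjusted p = 0.0445) and was lost without any 1 of the others (0.0735 to 0.121). Legumain (LGMN, chr14:93170152-93215024, minus strand) was at 11.2, 11.0 and 11.8 FPKM in control and 4.46, 6.65 and 4.84 FPKM in Ras-induced libraries. Its level in Ras-induced cells was 0.469 times that in control cells, and the log2 fold change of −0.98 (SE 0.14, limma adjusted p = 0.00867) was the largest fall among the 44 tested genes. IDS, CTSL and LGMN were altered in all 13 alternative fits.

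The remaining 5 proteases had log2 fold changes between −0.29 (CTSZ, a carboxypeptidase) and 0.21 (CTSH, an aminopeptidase, and TPP1, a tripeptidyl peptidase). Without control library 3 they were −0.43 for CTSZ, 0.32 for CTSH and 0.45 for TPP1, and −0.04 for CTSD and 0.03 for CTSA. CTSD, the aspartic protease, was at 94.9, 90.1 and 124.4 FPKM in control and 90.6, 85.5 and 93.6 FPKM in Ras-induced libraries, and CTSA, which also protects NEU1 and β-galactosidase in a complex, had a log2 fold change of −0.10. CTSD and CTSA both carry TCACGTG in the stretches above, and their adjusted p were 0.376 and 0.594. CTSH was the lowest, with a control mean of 1.28 FPKM.

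**Figure D3:**
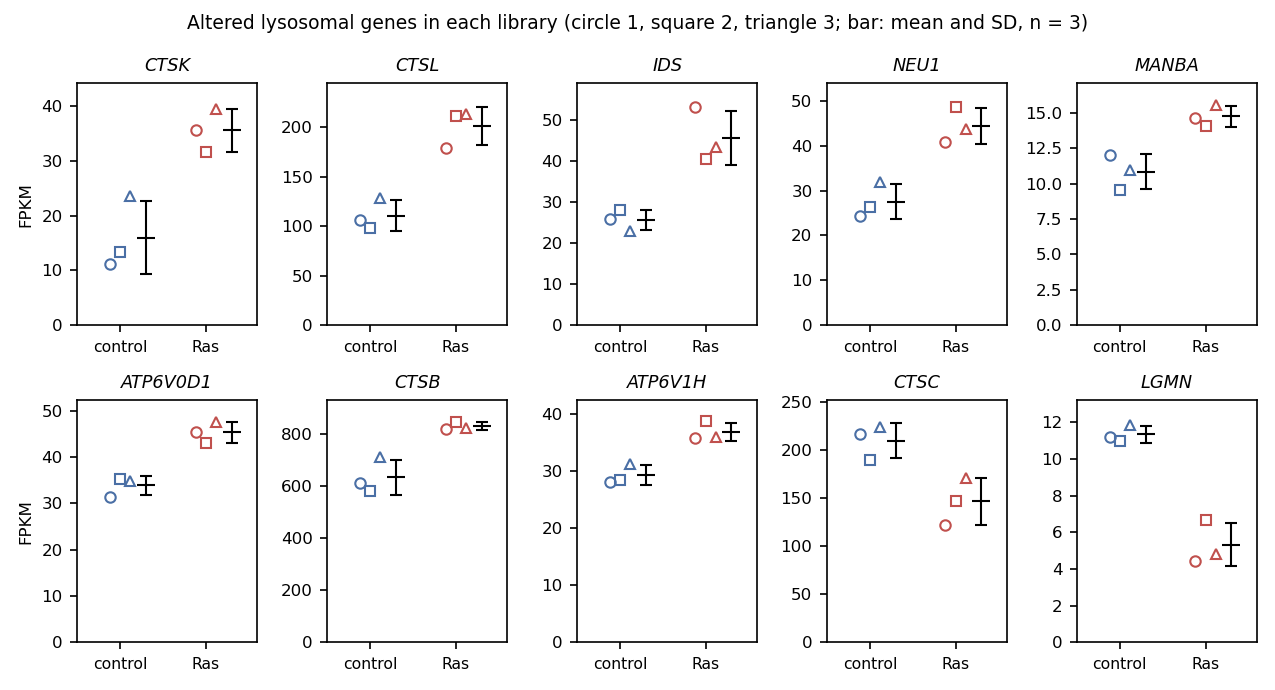
FPKM of the 10 altered lysosomal genes in each library, control in blue and Ras-induced in red, with circles, squares and triangles for libraries 1, 2 and 3 and black bars for the mean and SD (n = 3); each axis starts at 0. The groups did not overlap for any of the 10, and for CTSK control library 3 lies at 23.5 FPKM, above the other controls at 11.1 and 13.3 FPKM.

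Since FPKM is scaled to length, the make-up of the cysteine cathepsin pool could be read from summed levels. The 10 genes (B, C, F, H, K, L, O, S, V and Z) summed to 1093, 1018 and 1202 FPKM in control and 1283, 1354 and 1356 FPKM in Ras-induced libraries, with a Ras-induced mean 1.21 times the control mean and no overlap. CTSB made up 57.4% ± 1.54 (SD, n = 3) of this sum in control and 62.4% ± 1.62 in Ras-induced cells. The share of CTSC was 19.0% ± 0.695 in control and 11.0% ± 1.53 in Ras-induced cells, and that of CTSL was 10.0% ± 0.582 and 15.1% ± 1.00. CTSL thus stood below CTSC in each control library and above it in each Ras-induced library. CTSZ took 10.9% ± 2.47 of the sum in control and 7.28% ± 0.882 in Ras-induced cells. CTSK took 1.43% and 2.67% of the sum, and CTSS 0.517% and 1.14%. These sums and shares were given no test.

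Cystatins are secreted or cytosolic proteins that block cysteine cathepsins, and most of those expressed here were of the secreted kind. 9 cystatin genes were listed and 5 passed the filter on low values, 3 of them (CST1, CST2 and CST4) only through their Ras-induced libraries, so that a count of calls over the family says nothing. The other 2, CST3 and CSTB, were expressed in both groups and were altered as higher in the limma fit. CST3, encoding cystatin C, the main secreted inhibitor, was at 148.4, 150.9 and 171.4 FPKM in control and 303.1, 265.3 and 346.2 FPKM in Ras-induced libraries. These groups were far apart, with a log2 fold change of 0.95 (SE 0.12, limma adjusted p = 0.00519). CSTB, the cytosolic cystatin B, had a log2 fold change of 0.55 (SE 0.10, limma adjusted p = 0.0163), a call lost without control library 1 or Ras-induced library 1 or 3 (adjusted p up to 0.063). The salivary-type paralogs CST1, CST2 and CST4 are near-identical and could share reads, so only their sum is given: 0, 0.552 and 0.804 FPKM in control and 65.8, 18.6 and 79.4 FPKM in Ras-induced libraries. All 9 cystatins together summed to 181.6 ± 11.3 FPKM in control and 395.2 ± 73.7 FPKM in Ras-induced cells (SD, n = 3). The Ras-induced mean was 2.18 times the control mean, compared with 1.21 times for the cysteine cathepsins. CST5, CST6, CST7 and CSTA were each listed under 0.5 FPKM in every library.

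**Figure D4:**
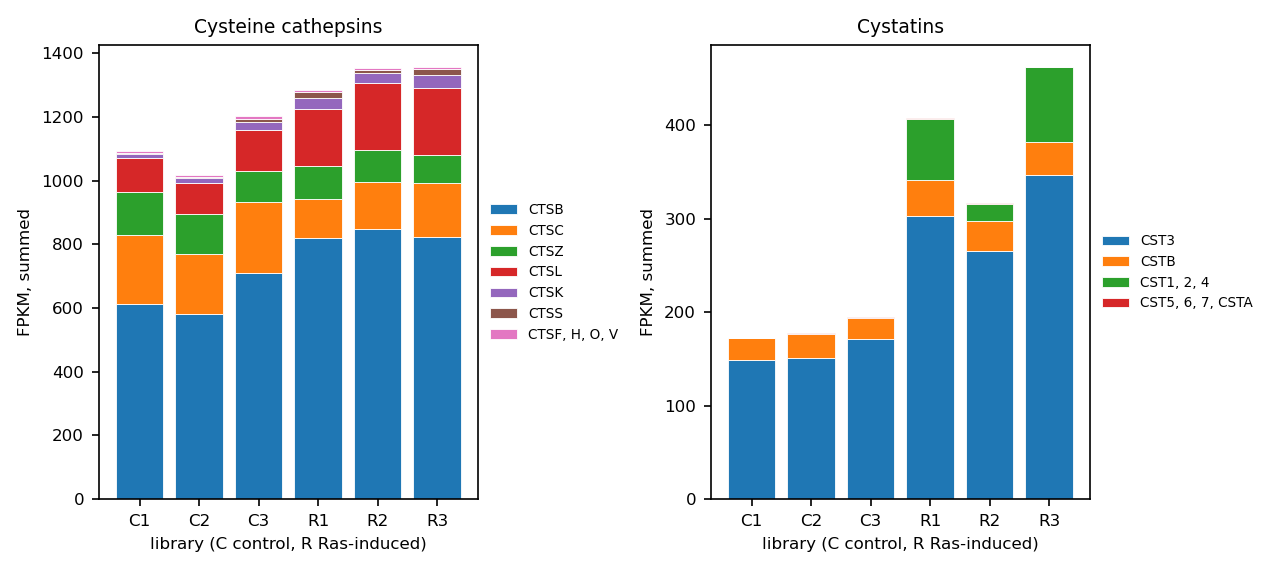
Summed FPKM of the cysteine cathepsins (left) and cystatins (right) in each library, stacked by gene, for control libraries C1 to C3 and Ras-induced libraries R1 to R3; both axes start at 0 and differ in scale. Cathepsin sums run from 1018 to 1202 FPKM in control and 1283 to 1356 FPKM in Ras-induced libraries, cystatin sums from 172.8 to 194.4 and from 316.3 to 462.1 FPKM.

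Membrane and lipid-transport proteins of the lysosome showed 0 altered genes of 8 in the limma fit (against 16.7% of all tested genes). At an unadjusted p under 0.05, 1 was higher and 1 lower, compared with 3206 and 1501 of the 13993 tested genes. CD63, a tetraspanin of late endosomes and lysosomes, was the most abundant gene of the whole list, at 789.5, 730.1 and 747.6 FPKM in control and 785.4, 910.1 and 839.4 FPKM in Ras-induced libraries, and the groups overlapped. LAMP1 was at 180.5, 169.3 and 230.9 FPKM in control and 162.1, 159.5 and 173.4 FPKM in Ras-induced libraries. Its log2 fold change was −0.22 with a 95% interval of −0.52 to 0.08 (limma adjusted p = 0.273). Its promoter stretch has the most copies of TCACGTG among the 33 genes. LAMP2, its paralog, which also serves chaperone-mediated autophagy, had a log2 fold change of −0.25 (adjusted p = 0.303). Without control library 3 the values were −0.08 for LAMP1 and −0.08 for LAMP2. SCARB2, the receptor that carries glucocerebrosidase to the lysosome, was at 98.1, 90.4 and 110.4 FPKM in control and 79.7, 78.4 and 83.7 FPKM in Ras-induced libraries. All Ras-induced values were lower, and the log2 fold change of −0.30 (SE 0.09) missed the threshold (limma adjusted p = 0.0704), which it passed after upper-quartile scaling (0.0443).

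NPC2 and NPC1 hand cholesterol across the lysosomal lumen and membrane. NPC2 was at 91.9, 78.8 and 83.1 FPKM in control and 109.0, 99.2 and 93.3 FPKM in Ras-induced libraries, without overlap, and its log2 fold change was 0.25 (SE 0.09, limma adjusted p = 0.121). NPC1 had a log2 fold change of −0.07 (SE 0.19), with groups that overlapped. MCOLN1, the calcium channel of the lysosome, and CTNS, the cystine exporter, each had a log2 fold change of 0.06, and CTNS had the lowest level of the 8, with a control mean of 7.39 FPKM. NPC1 and MCOLN1 had log2 fold changes of −0.19 and 0.13 without control library 3.

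The transcription factors differed in level. TFE3 was the most abundant, at 62.3, 62.4 and 45.4 FPKM in control and 58.8, 61.2 and 52.5 FPKM in Ras-induced libraries, with a log2 fold change of 0.03 (95% interval −0.31 to 0.37, limma adjusted p = 0.90), and −0.12 without control library 3. MITF was at 3.53 to 5.15 FPKM in control and 2.14 to 4.19 FPKM in Ras-induced libraries, with overlap (log2 fold change −0.33, adjusted p = 0.361). 0 of the 2 were altered by limma (against 16.7% of all tested genes). At an unadjusted p under 0.05, 0 were higher and 0 lower, compared with 3206 and 1501 of the 13993 tested genes. TFEB lay under the filter, at 0.341, 0.673 and 0.400 FPKM in control and 1.07, 2.14 and 1.31 FPKM in Ras-induced libraries. All 3 Ras-induced values were above all control values, with means of 0.471 ± 0.177 and 1.51 ± 0.563 FPKM (SD, n = 3), and in the fit with no filter on low values its adjusted p from limma was 0.106. Even in Ras-induced cells TFEB was at a small fraction of the level of TFE3.

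The vacuolar-type ATPase has a V1 sector in the cytosol that hydrolyses ATP and a V0 sector in the membrane that carries protons. Of the 5 pump genes of the list, 2 were altered, both higher (40%, against 11% of all tested genes). The count was 0 after either scaling, 3 without control library 3, 1 without Ras-induced library 2 and 0 when any other library was left out. ATP6V0D1 (chr16:67471917-67515084 in GRCh37, minus strand), the d subunit joining the sectors, was at 31.4, 35.3 and 34.9 FPKM in control and 45.5, 42.9 and 47.4 FPKM in Ras-induced libraries. The groups were apart, with a log2 fold change of 0.41 (SE 0.08, limma adjusted p = 0.0214). Its call was lost after quantile normalization (adjusted p = 0.0705) and without control library 1 or 2 or Ras-induced library 1 or 3 (0.0579 to 0.0838). It is the other altered gene with TCACGTG in the stretches above, while only 5 of the 10 altered lysosomal genes had a promoter entry. ATP6V1H (chr8:54628103-54756118, minus strand), the regulatory H subunit, was at 28.1, 28.5 and 31.3 FPKM in control and 35.8, 38.7 and 36.1 FPKM in Ras-induced libraries. It too was without overlap, with a log2 fold change of 0.32 (SE 0.08, limma adjusted p = 0.039). The call held without control library 3 (adjusted p = 0.0328) and was lost without any 1 of the others (0.0858 to 0.126) and after quantile normalization (0.152).

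ATP6V0A1, an isoform of the a subunit that lines the proton path, was at 7.34, 8.40 and 11.3 FPKM in control and 16.0, 12.8 and 13.1 FPKM in Ras-induced libraries. All Ras-induced values were higher, with a log2 fold change of 0.59 (SE 0.17, limma adjusted p = 0.0575), and it passed without control library 3 (0.024). ATP6V1A, the catalytic subunit, was at 6.43, 6.26 and 7.35 FPKM in control and 11.1, 7.90 and 8.61 FPKM in Ras-induced libraries. These did not overlap either, and the log2 fold change was 0.40 (SE 0.14, limma adjusted p = 0.10). ATP6AP1, an accessory protein of pump assembly, was the exception, with a log2 fold change of −0.15 (SE 0.10, limma adjusted p = 0.343), and −0.09 without control library 3.

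Of the 19 other pump genes 14 could be tested, 12 with a log2 fold change above 0 and 2 below (TCIRG1, −0.15, and ATP6AP2, −0.22). Those of TCIRG1 and ATP6AP2 were −0.14 and −0.03 without control library 3. 4 of the 14 were altered, all higher (28.6%, against 11% of all tested genes): ATP6V1F, ATP6V1C1, ATP6V1E1 and ATP6V0C. The count was 1 without Ras-induced library 3, and 2 or 3 when any other library was left out. ATP6V1F, the small F subunit of the central stalk, was at 66.5, 60.1 and 47.4 FPKM in control and 109.3, 120.8 and 104.9 FPKM in Ras-induced libraries, and at 0.94 (SE 0.13, limma adjusted p = 0.0079) had the largest log2 fold change of the tested pump genes. ATP6V1C1 had a log2 fold change of 0.71 (SE 0.17, limma adjusted p = 0.0342), ATP6V1E1 of 0.44 (SE 0.08, 0.0157) and ATP6V0C, the proteolipid of the rotor, of 0.35 (SE 0.07, 0.0233). ATP6V1C1 kept its call without control library 1 and lost it without any 1 of the others (adjusted p up to 0.102, and 0.071 without control library 3) and after quantile normalization (0.0536). That of ATP6V1E1 was lost without Ras-induced library 3 (0.0521), and that of ATP6V0C after upper-quartile scaling (0.0598) and without any 1 library other than control library 3 (up to 0.085). Over all 24 pump genes, 19 were tested, 6 were altered as higher (31.6%, against 11% of all tested genes) and 0 as lower (against 5.67%). At an unadjusted p under 0.05, 12 were higher and 0 lower, compared with 3206 and 1501 of the 13993 tested genes. The median log2 fold change of the 19 was 0.35, compared with 0.10 for all tested genes. The groups did not overlap for 13 of the 19, all higher in Ras-induced cells, compared with 27.1% of all tested genes. After quantile normalization and after upper-quartile scaling 3 of the 19 were altered, all higher (15.8%, against 7.46% and 6.58% of all tested genes). Leaving out 1 library gave 6 without control library 3 (31.6%, against 8.65% of all tested genes called higher in that fit), 3 without control library 1 (15.8% against 5.25%) and 2 without control library 2 (10.5% against 4.51%). It gave 2, 3 and 1 without Ras-induced libraries 1, 2 and 3 (10.5%, 15.8% and 5.26%, against 5.02%, 7.01% and 4.39%). The 24 genes summed to 996.2, 963.9 and 949.8 FPKM in control and 1177, 1237 and 1146 FPKM in Ras-induced libraries. Control library 3 was the lowest of the controls in this sum, unlike its place for the hydrolases. For the 5 pump genes of the list alone it was the highest control, at 161 FPKM, with the others at 142 and 145 FPKM.

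**Figure D5:**
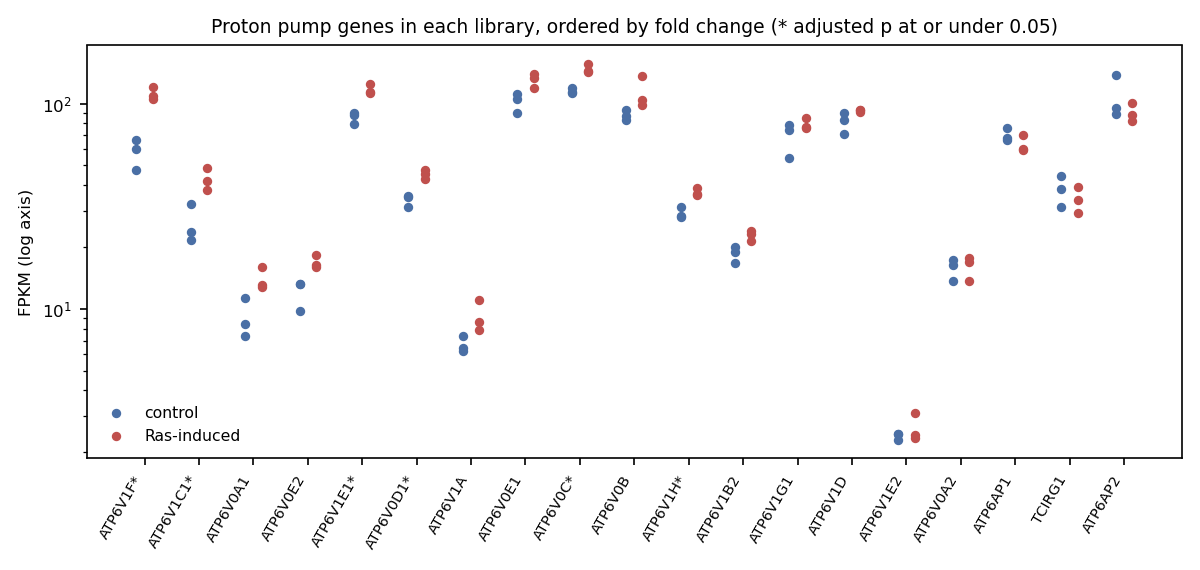
FPKM (log axis) of the 19 tested proton pump genes in each library, control in blue and Ras-induced in red, ordered by log2 fold change from ATP6V1F (0.94) to ATP6AP2 (−0.22), with an asterisk for adjusted p at or under 0.05. The 6 marked genes are all higher in Ras-induced libraries, and for 13 of the 19 the groups do not overlap.

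By summed level the 46 genes made up under 1% of all FPKM in each library. They summed to 3487, 3268 and 3858 FPKM in control and 3730, 3900 and 3890 FPKM in Ras-induced libraries, which was 0.623% ± 0.0643 and 0.642% ± 0.0148 of all FPKM (SD, n = 3). The shares were 0.610%, 0.567% and 0.693% in control and 0.647%, 0.625% and 0.654% in Ras-induced libraries, so that the overlap came from control library 3 and all Ras-induced shares were above those of the other 2 controls. CTSB and CD63 alone accounted for 39.4% ± 1.38 of the sum in control and 43.6% ± 1.27 in Ras-induced cells. Without these 2 genes the other 44 summed to 2084, 1957 and 2400 FPKM in control and 2124, 2142 and 2228 FPKM in Ras-induced libraries. Control library 3 was the highest of the 6 and the other 2 controls were the lowest.

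Hydrolases outside the list were called about as often as all tested genes. Of 26 further hydrolases and their activators, 25 were tested and 4 were altered (16%, against 16.7% of all tested genes), 1 higher (4% against 11%) and 3 lower (12% against 5.67%). DPP7, a dipeptidyl peptidase, was higher, with a log2 fold change of 0.44 (SE 0.11, limma adjusted p = 0.0462), and its call was lost after quantile normalization (0.138) and upper-quartile scaling (0.137), where the list had 0 higher and 4 lower. The lower genes were MAN2B2, an α-mannosidase (−0.71, SE 0.19, 0.0494), CTSF, cathepsin F (−0.70, SE 0.13, 0.0182), and PLA2G15, a lysosomal phospholipase (−0.41, SE 0.09, 0.0247). The count was 4 without control library 3, with ARSB, arylsulfatase B, called (adjusted p = 0.023) and MAN2B2 lost (0.069), 2 without Ras-induced library 2 and 0 when any other library was left out. Of 18 further membrane proteins 16 were tested and 2 were altered (12.5%, against 16.7% of all tested genes): ABCA2, a lipid transporter, was higher (0.92, SE 0.24, 0.0444) and SIDT2 was lower (−0.61, SE 0.15, 0.0427). The call of ABCA2 was lost after quantile normalization (adjusted p = 0.0707), after upper-quartile scaling (0.0692) and when any 1 library was left out (0.066 without control library 3, up to 0.129 without the others). That of SIDT2 held without control library 3 (0.0471) and was lost without any 1 of the others (up to 0.133).

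Genes that deliver hydrolases to the lysosome included 2 large falls. Of 9 delivery genes, all tested, 2 were altered (22.2%, against 16.7% of all tested genes) and both were lower (against 5.67%). SORT1, encoding sortilin, a sorting receptor for prosaposin and other cargo, was at 26.7, 18.6 and 21.3 FPKM in control and 7.99, 6.08 and 6.59 FPKM in Ras-induced libraries. The groups were far apart, with a log2 fold change of −1.55 (SE 0.16, limma adjusted p = 0.00305). NAGPA, the enzyme that uncovers the mannose 6-phosphate tag, was at 7.23, 6.97 and 10.7 FPKM in control and 3.07, 3.08 and 3.10 FPKM in Ras-induced libraries. Its log2 fold change was −1.16 (SE 0.17, limma adjusted p = 0.0079). The receptors of that tag did not pass the threshold: M6PR had a log2 fold change of 0.25 (SE 0.08, limma adjusted p = 0.073) and IGF2R of 0.20 (SE 0.10, 0.209).

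Lysosomes also carry the machinery by which mTORC1 senses nutrients. Of 15 such genes 13 were tested and 4 were altered, all higher (30.8%, against 11% of all tested genes): FLCN, folliculin (log2 fold change 0.59, SE 0.14, limma adjusted p = 0.0334), RRAGC (0.51, SE 0.12, 0.0318) and RRAGA (0.38, SE 0.09, 0.0327), encoding Rag GTPases, and LAMTOR5 (0.49, SE 0.13, 0.0485) of the Ragulator scaffold. MTOR and RPTOR, at the core of the complex, had log2 fold changes of −0.01 and −0.09. After quantile normalization or upper-quartile scaling 1 of the 13 was altered (7.69%, against 7.46% and 6.58% of all tested genes called higher). The count was 0 with no filter on low values. It was 2 without control library 3, with FLCN (adjusted p = 0.059) and LAMTOR5 (0.0558) lost, 2 without Ras-induced library 2, 1 without control library 1 and 0 when any other library was left out.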

How the data were processed

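Poly(A) RNA of mitotic ERRAS cells was sequenced on a NextSeq500 in 3 control and 3 Ras-induced libraries, with a kit that does not mark strand, so overlapping genes on opposite strands cannot be told apart. The authors trimmed reads with Trim Galore 0.3.0, aligned them with TopHat2 to hg19 and computed the deposited FPKM values per gene with Cufflinks; no scaling between libraries is given in the sources used here. A deposited table of the authors' own comparison, with FPKM per group, fold changes, p-values and q-values, was not used. Of 63129 genes listed, 120 with more than 6 values were left out, as were 1 repeated header line and 18 unnamed columns. Columns carry a group and a number but are not tied to single samples. limma 3.58.1 in R 4.3.3 (two-sided, mean-variance trend) was run on log2(FPKM + 1) for genes whose mean reached 1 FPKM and was tested on simulated data. Gene positions in GRCh37 are from GENCODE lifted to that build. Alternatives were a pseudocount of 0.1, no filter, a filter at 5 FPKM, quantile normalization, upper-quartile scaling, no trend, a log2 fold change of 1 or more in size, a replicate block and leaving out each library. All lysosomal genes were described by role. Those altered or with a log2 fold change of 0.5 or more in size have values per library, as do examples chosen after their values were seen, and of other lists up to 3 altered genes in each direction are named, and of the pump and nutrient-sensing lists also the fourth, chosen after its value was seen. The genes and lists were chosen with earlier results of these data known. Sums of FPKM and promoter motifs have no test. FPKM holds no counts, so no counting intervals are given.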

Additional observations from a re-analysis of the deposited data

How the results depend on the processing

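With 3 libraries a group, leaving out 1 library also removes a degree of freedom, and FPKM gives no counts from which to judge the precision of low genes. Of 569 lysosomal values compared over 13 alternatives, 478 kept their direction and their side of the threshold, 51 lost and 12 gained the call, and 28 changed sign. All 10 altered lysosomal genes kept their direction in every alternative; the call held in 13 of 13 for IDS, CTSL and LGMN, 11 for NEU1, 7 for CTSK and ATP6V0D1, 6 for CTSC, and 3 for MANBA, CTSB and ATP6V1H.

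Over all tested genes 2336 were altered, 1518 with no filter on low values, 548 with a log2 fold change of 1 or more in size, and 998 to 1956 without 1 library. The counts below do not say that the genes were the same ones. Altered lysosomal genes numbered 10 (8 higher and 2 lower), and 5 with no filter (4 and 1), 6 with no trend (5 and 1) and 1 with the fold limit (1 and 0). Quantile normalization gave 4 higher, and upper-quartile scaling gave 4 higher and 4 lower. Without 1 library, 3 to 12 were altered, 2 to 10 higher and 1 to 2 lower: 4 without control library 1, 3 without control library 2, and 4, 5 and 4 without Ras-induced libraries 1, 2 and 3. Altered further hydrolases numbered 4, and 1 with no filter, 2 with no trend, 0 with the fold limit and 0 to 4 without 1 library, with MAN2B2 no longer called and ARSB called without control library 3. Altered further pump genes numbered 4, and 0 with the fold limit and 1 to 3 without 1 library. Altered further membrane genes numbered 2, and 0 with no filter, a filter at 5 FPKM or the fold limit, 1 with either scaling or no trend, and 0 to 1 without 1 library. Altered cystatins numbered 5, of which 3 passed the filter only through Ras-induced libraries, and 3 with a filter at 5 FPKM or the fold limit and 3 to 5 without 1 library. Altered nutrient-sensing genes numbered 4, and 0 with no filter or the fold limit, 1 with either scaling, 2 with no trend and 0 to 2 without 1 library. Altered delivery genes numbered 2 or 3 in each alternative.

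The sign changes were in genes that were not altered. After quantile normalization and upper-quartile scaling the log2 fold changes were −0.0730 and −0.0789 for GLB1, −0.0700 and −0.0702 for GLA, −0.0344 and −0.0449 for MCOLN1, −0.0283 and −0.0361 for CTNS, and −0.0612 and −0.0769 for TFE3. Leaving out 1 library gave −0.0889 to 0.19 for GLB1, −0.15 to 0.16 for HEXA, −0.42 to 0.0569 for GAA, −0.0217 to 0.0977 for GLA, −0.25 to 0.19 for IDUA, −0.21 to 0.0561 for MAN2B1, −0.18 to 0.11 for NAGLU, −0.32 to 0.0237 for LIPA, −0.14 to 0.0515 for PPT1, −0.17 to 0.0277 for CTSA, −0.19 to 0.14 for NPC1, −0.0365 to 0.14 for CTNS and −0.12 to 0.11 for TFE3. The cause was not tested.

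Whether same-numbered libraries form pairs is not known. Correlations of the deviations of same-numbered libraries were −0.0027, 0.043 and 0.048, compared with −0.068 to 0.031 for other pairs. With 3 libraries a group, such values cannot tell whether libraries are paired. With the replicate block 2310 genes and 10 lysosomal genes (7 higher and 3 lower) were altered, with adjusted p of 0.0554 for CTSB and 0.0609 for ATP6V1H, 0.0245 for CTSS and 0.0468 for ASAH1.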
